A study of Mus musculus with 18 samples.

Results

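Brain hemispheres of 9 wild-type mice were compared with each other: 3 whose arrays gave almost no signal for Gabra6 and 6 whose arrays gave a strong one. Gabra6 encodes a GABA-A receptor subunit made mainly by cerebellar granule cells. The arrays were chosen by their Gabra6 signal: the probe set with the highest mean was taken, and arrays with a signal under 100 were set apart from those with 100 or more. It placed 3 of the 9 wild-type arrays, of 18 arrays in the whole series, on the low side. The 3 are called the low-Gabra6 arrays here and the 6 the high-Gabra6 arrays. Just inside the threshold was an array with a Gabra6 signal of 10.9, and just outside it one with 936.

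The mice came from the R6/1 line, a model of Huntington's disease whose transgene is exon 1 of human HTT bearing a lengthened CAG repeat. The wild-type mice described here do not carry it. One hemisphere of each mouse was used, at 18, 22 or 27 weeks of age, with 3 wild-type mice per age. The low-Gabra6 arrays were replicate 1 at 18 weeks and replicates 2 and 3 at 22 weeks, and their values are always given in this order. The high-Gabra6 arrays were 2 at 18 weeks, 1 at 22 weeks and 3 at 27 weeks, so age was not balanced between the sides. Signals of the 9 transgenic arrays, which the titles place as 3, 2 and 4 at the same ages, are given for comparison. The design text states 3 per genotype and age, so it differs from the titles on 1 transgenic sample. The labels call the tissue a brain hemisphere and do not say whether cerebellum, brainstem or olfactory bulb was left on it.

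A hemisphere holds forebrain and midbrain and, depending on the dissection, one side of the cerebellum and hindbrain with them. The cerebellar cortex is built from very many small granule cells, whose axons excite Purkinje cells, its only output neurons. Golgi, basket, stellate and unipolar brush cells and Bergmann glia complete it. HOX genes keep their order of expression along the adult hindbrain and spinal cord, and glycine is a main inhibitory transmitter there. In a bulk sample, fewer cells of a type and less RNA per cell cannot be told apart.

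Because Gabra6 itself chose the arrays, and all genes of an array come from the same mouse, the difference between the sides is given as a description without a test. Differences are on the scale of log2(signal + 5.4), low-Gabra6 minus high-Gabra6, with the moderated standard error of limma (SE). A gene is called lower or higher when its 3 and 6 signals did not overlap and its difference was at least 1.5-fold. The deposited arrays share the same trimmed mean, so a signal is relative to the other transcripts of its array. A detection call was not used here, and a probe set had to exceed a mean signal of 16.1 over the 18 arrays to be kept.

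Of 12582 genes, 190 were lower, which is 1.51% of the genes, and 42 were higher, which is 0.334%. At least 4-fold, 21 genes were lower (0.167%) and 0 were higher (0.0%). The split used this contrast, so nothing is read from these shares. The median difference over all genes was 0.00. The called falls had a median of 1.98-fold. Gabra6, which chose the arrays, fell 113-fold, and Pcp2, the next, 93.5-fold. The called rises had a median of 1.56-fold and reached 2.57-fold. Without any minimum on the fold, 640 genes were lower in all 3 arrays than in all 6 (5.09%), and 568 were higher (4.51%). The count of higher genes grew when a low-Gabra6 array was left out, to 74 without replicate 1 at 18 weeks, 83 without replicate 2 at 22 weeks and 90 without replicate 3 at 22 weeks. With fewer arrays, fewer signals have to stay apart. At 18 and 22 weeks, the ages that hold both sides, Pcp2 differed by -5.61 and -6.91, Neurod1 by -2.31 and -2.18, Drd1 by 0.53 and 0.51 and Hes5 by 0.94 and 1.00. Restricted to these ages, 215 genes were lower and 60 higher.

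**Figure D1:**
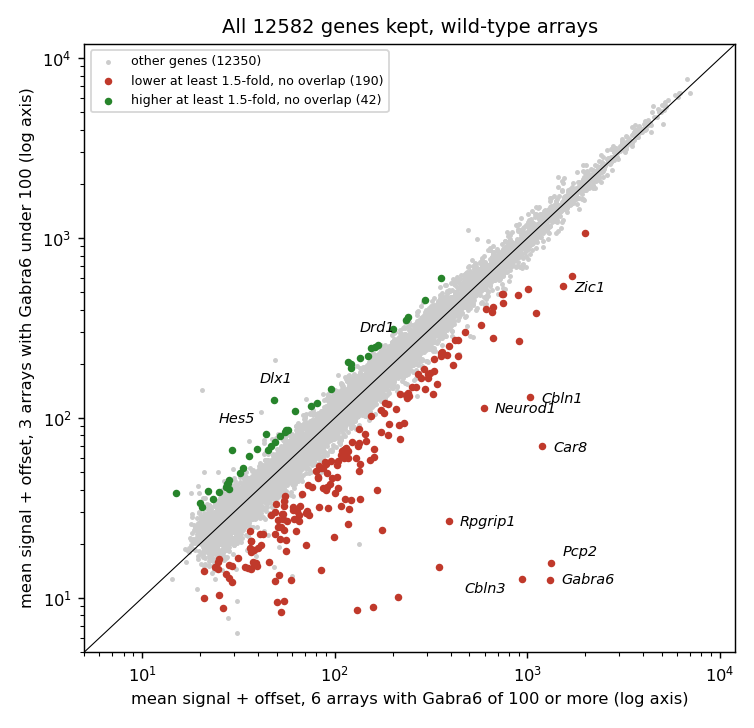
Mean signal plus the offset of 5.4 for each of the 12582 genes, in the 6 high-Gabra6 wild-type arrays (horizontal, log axis) and the 3 low-Gabra6 ones (vertical, log axis). The 190 lower genes (red) reach far below the diagonal, and the 42 higher genes (green) lie close above it.

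Promoters are printed for 3 granule cell genes whose signal was lost almost entirely, so that the shared loss can be seen beside their sequence. Each runs from 250 bases before to 50 bases after the annotated RefSeq start on the GRCm38.p6 build, 5′ to 3′ on the gene's strand. Capitals mark TTGGC or its reverse complement GCCAA, the half-site bound by nuclear factor I, a family of transcription factors known to act at the Gabra6 promoter in maturing granule cells. The window of Gabra6 lies at chr11:42321023-42321322 on the minus strand and holds 1 match, that of Cbln3 at chr14:55884207-55884506 on the minus strand holds 2, and that of Fat2 at chr11:55312208-55312507 on the minus strand holds 0.
Gabra6: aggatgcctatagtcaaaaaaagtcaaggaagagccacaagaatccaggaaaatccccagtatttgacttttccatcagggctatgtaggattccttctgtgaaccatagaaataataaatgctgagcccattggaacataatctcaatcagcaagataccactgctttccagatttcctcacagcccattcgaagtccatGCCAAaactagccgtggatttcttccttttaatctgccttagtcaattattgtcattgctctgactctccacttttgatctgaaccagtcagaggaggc
Cbln3: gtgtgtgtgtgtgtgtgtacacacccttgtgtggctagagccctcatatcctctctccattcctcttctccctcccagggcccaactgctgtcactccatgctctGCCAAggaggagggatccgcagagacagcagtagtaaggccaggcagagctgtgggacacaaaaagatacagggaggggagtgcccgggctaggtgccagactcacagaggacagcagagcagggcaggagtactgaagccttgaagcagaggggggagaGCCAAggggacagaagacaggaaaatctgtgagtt
Fat2: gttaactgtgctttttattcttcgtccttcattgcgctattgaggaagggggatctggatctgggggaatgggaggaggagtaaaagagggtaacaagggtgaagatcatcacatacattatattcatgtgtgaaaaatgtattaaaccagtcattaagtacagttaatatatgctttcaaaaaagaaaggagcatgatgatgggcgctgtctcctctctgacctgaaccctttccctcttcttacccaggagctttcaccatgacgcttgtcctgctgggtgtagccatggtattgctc
Of the 21 genes lower at least 4-fold, 16 had an entry in the promoter table, with 26 promoters in all, and 11 of these (42.3%) held the motif on either strand. Of all 32851 promoters of the same length, 15344 (46.7%) held it. The share among these 26 promoters was no higher than among all promoters, and nothing is read from it. A gene with several promoters counts more than once, and Gabra6, which chose the arrays, is in the set. A match of 5 bases is a description and not a binding site.

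The 3 markers of the cerebellar cortex were lost together. Gabra6 gave 10.9, 9.9 and 0.6 in the low-Gabra6 arrays and 936 to 1570.0 (median 1333) in the others, and these values chose the arrays. Pcp2, a Purkinje cell protein that modulates G-protein signalling, gave 18.6, 9.6 and 2.5 against 1069 to 1506 (median 1329.5), a difference of -6.55 ± 0.24 (SE, n = 3 and 6). Cbln3, a granule cell member of the cerebellin family of synapse organisers, gave 8.8, 6.1 and 7.2 against 658 to 1119 (median 940.2), a difference of -6.18 ± 0.14. For each of the 3 markers the signals of the low-Gabra6 arrays lay near background and far below those of every high-Gabra6 array. The transgenic arrays all gave signal, with ranges of 1015 to 1579 (median 1179) for Gabra6, 577 to 913 (median 731) for Pcp2 and 534 to 793 (median 592) for Cbln3. No transgenic array fell on the low side of the Gabra6 threshold. The mean signal left in the low-Gabra6 arrays was 0.546% for Gabra6, 0.771% for Pcp2 and 0.791% for Cbln3.

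**Figure D2:**
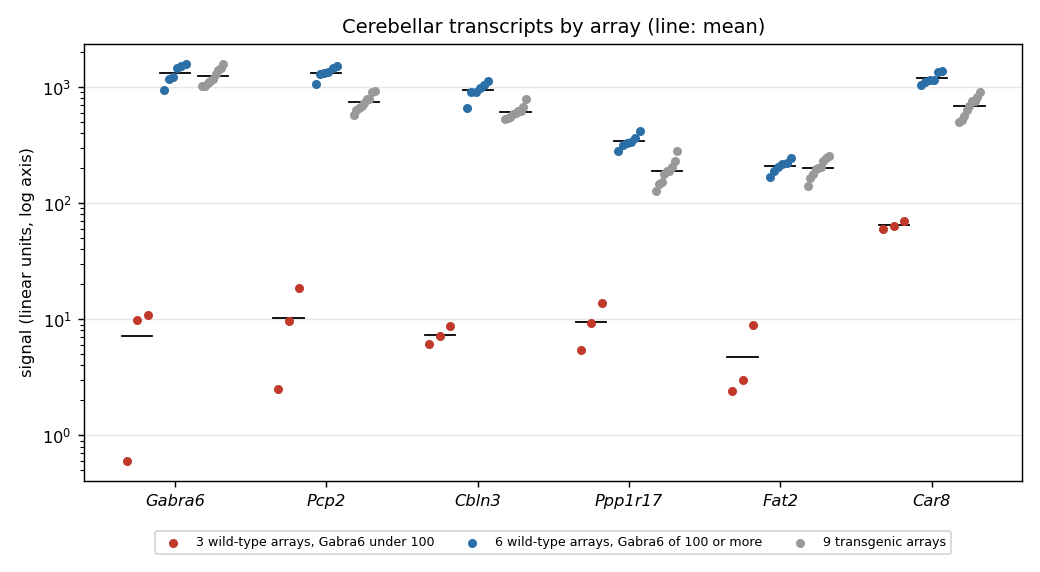
Signal (log axis) of 6 cerebellar transcripts on each array, with a line at the mean of each group: 3 low-Gabra6 wild-type (red), 6 high-Gabra6 wild-type (blue) and 9 transgenic arrays (grey). For all 6 genes the red points lie below every blue and grey point, and Car8 keeps a signal of 59.4 to 70.1 where the other 5 stay under 20.

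Granule cell genes were lower as a group. Of 20 genes on the list, 18 were kept, and 13 of these were lower (1.51% of all genes were) and 0 higher. Gabra6, whose call the choice of arrays fixed, is among the 18 and the 13. The median difference was -1.31, or -1.14 with no filter on low signals. In 5 of the 18, the low-Gabra6 arrays averaged under the filter of 16.1, so these genes passed only through arrays where they are high and had to differ, and 4 of them are among the 13. The list's median was -1.36, -1.27 and -1.36 in the 3 arrays and between -0.23 and 0.19 in the 6. These ranges did not overlap. Fat2, a giant cadherin of parallel fibres, gave 2.4, 8.9 and 3.0 against 168 to 245 (median 210.0), a difference of -4.43 ± 0.18. Neurod1, a transcription factor needed for granule cells to form, was partly kept, at 107, 111 and 109.7 against 519 to 693 (median 579) (-2.37 ± 0.09). Chn2, which encodes the Rac regulator beta-chimaerin, gave 247, 268 and 269 against 751 to 1097 (median 886) (-1.74 ± 0.11). For both Neurod1 and Chn2 the 3 arrays gave nearly equal signals, well below the 6. Zic1, a zinc-finger factor of granule cell precursors that also marks parts of the thalamus, gave 581, 552 and 474 against 1143 to 1892 (median 1547) (-1.49 ± 0.13). Mab21l1 (-1.54 ± 0.15), Uncx (-1.57 ± 0.29), Zic5 (-1.14 ± 0.15), Zic4 (-0.99 ± 0.18) and Pax6 (-0.93 ± 0.18), all developmental regulators, were lower as well. The secreted guidance protein gene Reln gave 729, 761 and 569 against 810.4 to 945 (median 873) (-0.34 ± 0.09), and Cadps2, a vesicle priming factor, differed by -0.52 ± 0.08. Both were without overlap but short of 1.5-fold. Zic2 (-0.96 ± 0.24) and Barhl1 (-0.16 ± 0.24) overlapped between the sides.

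Purkinje cell genes ranged from almost complete loss to no separation. Of 23 on the list, 18 were kept, 10 lower (1.51% of all genes were) and 0 higher. Their median was -1.04, or -0.90 with no filter. Of the 18, 5 passed the filter only through the high-Gabra6 and transgenic arrays, and 3 of these are among the 10. Ppp1r17, a phosphatase inhibitor subunit known from Purkinje cells, gave 13.7, 5.4 and 9.2 against 281 to 419 (median 334) (-4.58 ± 0.16). Car8, a carbonic anhydrase relative that binds the IP3 receptor, gave 63.7, 59.4 and 70.1 against 1047 to 1359.8 (median 1152) (-4.10 ± 0.09), and 494 to 912 (median 680.0) in the transgenic arrays. It kept 5.41% of its mean signal, a residue that was even across the 3 arrays. Lhx1, a LIM-homeodomain factor, gave 0.9, 4.7 and 18.5 against 34.5 to 57.6 (median 45.9) (-2.14 ± 0.32). The glutamate transporter gene Slc1a6 (-1.92 ± 0.19), the calcium pump gene Atp2a3 (-1.66 ± 0.10), the scaffold gene Homer3 (-1.40 ± 0.11), the G-protein regulator gene Rgs8 (-1.26 ± 0.10) and the potassium channel gene Kcng4 (-1.18 ± 0.12) were lower. Calb1, the calcium buffer calbindin, gave 1150.0, 963 and 1057 against 1878 to 2148 (median 1977) (-0.90 ± 0.06), so about as much signal stayed as was lost. Pcp4, a calmodulin regulator strong in both Purkinje cells and striatum, did not separate the sides, at 3175, 2839 and 3363 against 2949 to 3380.4 (median 3132) (-0.01 ± 0.07). In the transgenic arrays Pcp4 gave 1542 to 1959 (median 1777).

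On the list of other cerebellar cells, 6 of the 13 genes kept were lower (1.51% of all genes were) and 0 higher, with a median of -0.46. The median of the other cerebellar cells list was -0.73 without replicate 1 at 18 weeks, -0.82 without replicate 2 at 22 weeks and -0.24 without replicate 3 at 22 weeks. Gdf10, a growth factor of Bergmann glia, gave 37.8, 47.4 and 18.5 against 106 to 195 (median 167) (-2.10 ± 0.22), and Hopx, a homeodomain-only protein of the same cells, gave 608, 497 and 452 against 939 to 1132 (median 992) (-0.96 ± 0.09). Tfap2b (-1.45 ± 0.19) and Tfap2a (-0.87 ± 0.26), transcription factors of cerebellar GABA neuron precursors, and Kit (-0.81 ± 0.10), a receptor of molecular layer interneurons, were also lower. Eomes, which marks unipolar brush cells but also olfactory bulb output neurons, gave 61.8, 63.7 and 10.4 against 30.4 to 86.6 (median 49.5), so that only replicate 3 at 22 weeks lay below the 6. Fabp7, a fatty acid binding protein of radial and olfactory glia, gave 649.7, 662 and 316 against 287 to 503 (median 329), with replicate 3 at 22 weeks inside the range of the 6 and the other 2 above it.

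Among the 20 genes with the deepest falls, 10 were on the 3 cerebellar lists, including Gabra6, which chose the arrays. A further 1, En2, was on the hindbrain list. En2, the engrailed factor that patterns the midbrain and hindbrain border, gave 17.0, 21.9 and 16.2 against 132 to 194 (median 172) (-2.88 ± 0.13). The other 9 were on no list. Cnpy1, a canopy family gene of the midbrain and hindbrain border region, gave 0.2, 4.2 and 6.2 against 103 to 179 (median 163) (-4.17 ± 0.22), and its 2 other probe sets had a median of -3.76. Crtam, an adhesion molecule first known from T cells, gave 1.5, 1.3 and 6.7 against 90.8 to 171 (median 124) (-3.95 ± 0.22). Il20rb (-2.73 ± 0.23), an interleukin receptor subunit, Il16 (-2.16 ± 0.18), a cytokine precursor with a neuronal form, and Ptpn22 (-2.25 ± 0.21), a phosphatase of lymphocytes, were also lower without overlap. For Il16, the signals were 22.3, 20.6 and 18.1 against 67.9 to 136 (median 121), and the transgenic ones 105 to 159 (median 121). Arhgef33 (-2.66 ± 0.28) and the unnamed transcript Gm2694 (-2.41 ± 0.19) complete the set, apart from Skor1 and Rpgrip1, described below. Of the 14 microglial genes kept, 0 were called lower or higher, and their median was 0.15.

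Of 30 HOX genes 5 were kept, and of these Hoxb3 was called lower and the other 4 overlapped between the sides. Apart from Hoxa5, the kept HOX genes averaged under the filter of 16.1 in the low-Gabra6 arrays, so they passed it only through arrays where they are high and had to differ. Hoxb3 lay at 4.4, 9.5 and 1.1 against 16.1 to 28.4 (median 18.6) (-1.34 ± 0.27). Hoxb5 gave 1.7, 0.7 and 0.6 against 0.8 to 43.0 (median 25), and Hoxc4 gave 1.3, 1.7 and 3.9 against 3.0 to 35.6 (median 25.1). Both overlapped only through replicate 3 at 18 weeks, the high-Gabra6 array with the weakest Gabra6, whose signals were 0.8 for Hoxb5 and 3.0 for Hoxc4. In the transgenic arrays Hoxb5 gave 0.7 to 41.9 (median 26.1) and Hoxc4 gave 0.6 to 34.9 (median 24.4). Transgenic replicate 3 at 18 weeks gave the lowest value of both, with Hoxb3 at 5.6 and Gabra6 at 1015. Low signals of these HOX genes therefore also occurred with a strong Gabra6 signal. Hoxb2 differed by -0.95 ± 0.32 with overlap. Hoxa5 gave 65.1, 37.3 and 52.8 against 35.6 to 84.2 (median 56.2) (-0.09 ± 0.22), while its other kept probe set differed by -2.31, so the probe sets of Hoxa5 disagree. With no filter on low signals, the median over the measured HOX genes was -0.11.

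Of 28 hindbrain transcription factors, 11 were kept, 3 were lower (1.51% of all genes were) and 0 higher, with a median of -0.65. Without replicate 1 at 18 weeks this median was -0.40, and without replicate 2 at 22 weeks it was -0.41. Of the 11, 3 passed the filter only through arrays where they are high, Tlx3 among them. Tlx3, a homeodomain factor of dorsal hindbrain and spinal neurons, gave 13.9, 7.7 and 3.0 against 16.8 to 26.1 (median 21.9) (-1.08 ± 0.25), and Meis1, a HOX cofactor, gave 31.5, 33.4 and 15.8 against 44.0 to 53.8 (median 48.1) (-0.80 ± 0.18), or -0.52 without replicate 3 at 22 weeks. Mab21l2 (-0.83 ± 0.23), Lbx1 (-0.71 ± 0.35) and Irx5 (-0.65 ± 0.24) overlapped between the sides. Skor1, a corepressor that partners Lbx1, gave 1.0, 5.7 and 6.0 against 21.1 to 76.1 (median 48.5) (-2.48 ± 0.30). Its lowest high-Gabra6 value, 21.1, again came from replicate 3 at 18 weeks. In the transgenic arrays Skor1 gave 35.7 to 105 (median 81.4).

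Of 6 glycine signalling genes kept, 2 were lower (1.51% of all genes were) and 0 higher. Slc6a5, the transporter that glycine neurons use to refill their terminals, gave 21.3, 26.3 and 1.4 against 53.7 to 136 (median 99.5) (-2.41 ± 0.40). Slc6a5 is also on the list of other cerebellar cells and is among the 6 lower genes there. Glra1, the main adult receptor subunit, gave 29.0, 16.8 and 12 against 33.6 to 66.1 (median 44.1) (-1.08 ± 0.23). In the transgenic arrays Slc6a5 gave 15.1 to 113 (median 84.5), lowest in replicate 3 at 18 weeks, and Glra1 gave 19.3 to 54.5 (median 35.8). The subunit Glrb (-0.04 ± 0.09), the scaffold Gphn (0.14 ± 0.07), the glial transporter Slc6a9 (-0.20 ± 0.09) and the forebrain subunit Glra3 (0.26 ± 0.13) overlapped between the sides. The serotonergic list had 0 of 6 genes called and a median of -0.19, or -0.09 without replicate 1 at 18 weeks. Its defining enzyme Tph2 gave 5.4, 7.8 and 21.7 against 16.1 to 48.9 (median 38.5) (-1.22 ± 0.35), and the serotonin transporter gene Slc6a4 gave 5.4, 7.4 and 26.6 against 9.7 to 42.0 (median 32.5) (-1.01 ± 0.37). In both, replicate 3 at 22 weeks lay inside the range of the high-Gabra6 arrays and the other low-Gabra6 arrays lay below it. In the transgenic arrays, all with strong Gabra6, Tph2 gave 6.7 to 18.4 (median 10.7) and Slc6a4 gave 1.3 to 18.1 (median 13.4). Dbh, the enzyme that makes noradrenaline, gave 30.2, 49.4 and 15 against 26.4 to 46.0 (median 30.4) (-0.13 ± 0.26), with no separation. Of the cholinergic and motor neuron genes, 0 of 5 kept were called.

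**Figure D3:**
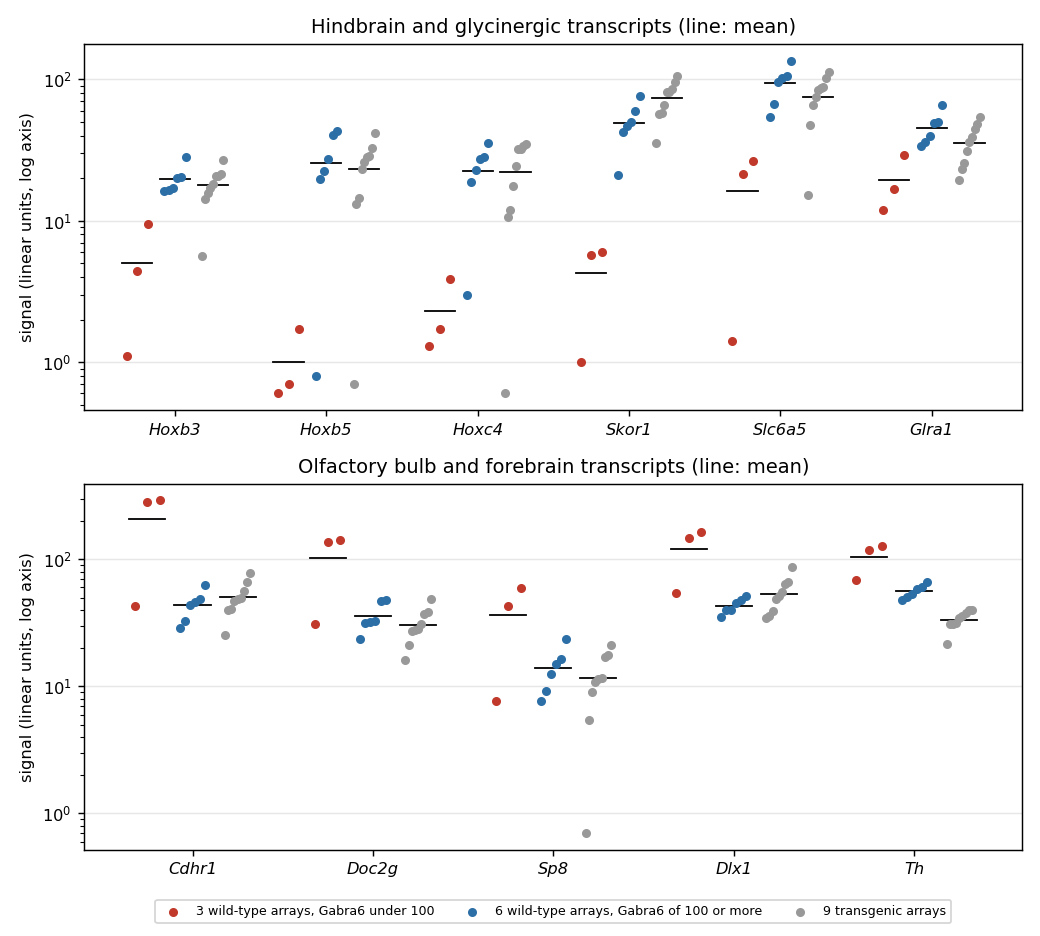
Signal (log axis) of hindbrain and glycinergic transcripts (upper panel) and of olfactory bulb and forebrain transcripts (lower panel) on each array, with a line at the group mean: low-Gabra6 wild-type (red), high-Gabra6 wild-type (blue), transgenic (grey). The blue point at 0.8 for Hoxb5 and at 3.0 for Hoxc4 is replicate 3 at 18 weeks, and the red point at 42.7 for Cdhr1 is replicate 3 at 22 weeks.

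Families of synaptic proteins were followed member by member. Cerebellins are secreted proteins that bridge presynaptic neurexins and postsynaptic delta glutamate receptors. Cbln1, the form that granule cells release onto Purkinje cells, gave 121, 141 and 113 against 793 to 1179 (median 1035) (-2.98 ± 0.11), so that 12.1% of its mean stayed where Cbln3 kept 0.791%. Cbln2 was slightly higher without overlap, at 142, 149 and 178 against 112 to 138 (median 126) (0.29 ± 0.09), and Cbln4 overlapped (0.15 ± 0.12). Both are expressed mainly outside the cerebellum.

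GABA-A receptors are pentameric chloride channels, and those of granule cells join Gabra6 with Gabrd. Of 10 subunit genes kept, none was called other than Gabra6, whose call the choice of arrays fixed. Gabrd, the extrasynaptic subunit, gave 279, 252 and 309 against 333 to 395 (median 375) (-0.40 ± 0.08), lower without overlap but short of 1.5-fold. In the transgenic arrays Gabrd gave 174 to 269 (median 212). Gabra4 (0.32 ± 0.11), Gabra3 (0.28 ± 0.07) and Gabrg3 (0.53 ± 0.14) were higher without overlap, at most 1.44-fold, although the other probe set of Gabra3 showed almost no difference. Gabra2 (0.09 ± 0.22), Gabra5 (0.20 ± 0.10), Gabrb1 (0.01 ± 0.08), Gabrb2 (0.09 ± 0.06) and Gabrg1 (0.07 ± 0.09) overlapped between the sides.

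Among glutamate receptors, Grin2c and Grm4 were called lower, with 46.8% and 47.4% of their mean signal left. Grin2c, the NMDA receptor subunit of mature granule cells, gave 62.8, 70.5 and 102 against 144 to 204 (median 163) (-1.06 ± 0.14). Grin2b, its forebrain counterpart, was higher without overlap, at 221, 258 and 241 against 105 to 219 (median 200.2) (0.40 ± 0.18), although its 2 other probe sets had a median of -0.07. Grin2d (0.05 ± 0.14), Grin3a (-0.12 ± 0.12) and Grid1 (0.23 ± 0.10) overlapped. Among 6 metabotropic receptors kept, Grm4, which sits on parallel fibre terminals, gave 84.9, 85.1 and 93.2 against 169 to 192 (median 187) (-1.03 ± 0.08). In the transgenic arrays Grm4 gave 87.3 to 133 (median 96.1), partly as low as the low-Gabra6 arrays, and Grin2c gave 108 to 146 (median 115), above them. Grm5 (0.42 ± 0.09) and Grm3 (0.27 ± 0.07), receptors of forebrain neurons and astrocytes, were higher without overlap and under 1.5-fold. Grm7 (0.22 ± 0.08), Grm8 (0.25 ± 0.12) and Grm2 (0.02 ± 0.11) overlapped.

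Rises were small, and 8 of the 42 higher genes were on any of the lists. Of 31 genes on the striatal projection neuron list, 27 were kept. All 27 had a difference above 0, with a median of 0.34 (all genes 0.00). Of these, 14 were higher without overlap (4.51% of all genes were) and 2 were called higher (0.334% were). The list's median was 0.33, 0.19 and 0.56 in the 3 arrays and between -0.13 and 0.13 in the 6, and these ranges did not overlap. Drd1, the dopamine receptor of the direct pathway, gave 245, 193 and 283 against 106 to 174 (median 155) (0.67 ± 0.14), and Actn2, a cytoskeletal crosslinker, gave 84.7, 77.6 and 78.5 against 41.5 to 60.3 (median 54.1) (0.59 ± 0.13). Gng7, a G-protein subunit coupled to dopamine receptors, gave 358, 408 and 479.5 against 249 to 307 (median 274) (0.58 ± 0.09). Rgs9, which ends G-protein signals in striatal neurons, gave 277, 270.3 and 345 against 175 to 230.0 (median 198) (0.56 ± 0.11). Both were higher without overlap but under 1.5-fold. In the transgenic arrays, Drd1 gave 62.3 to 91.2 (median 85.6) and Rgs9 gave 82.9 to 149 (median 107), below every wild-type array for both genes.

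Cortical and hippocampal genes had a median of 0.20 over 28 kept, and 0 were called. Without overlap, 6 were higher and 1 lower, where 4.51% and 5.09% of all genes were. Camk2a, a kinase of excitatory forebrain synapses, gave 2246, 1809 and 2496 against 1227 to 1850.0 (median 1354) (0.60 ± 0.12), and its lowest low-Gabra6 signal lay just under the highest of the others. Its 4 other probe sets had a median of 0.20. Fezf2 (0.45 ± 0.14) and Tbr1 (0.41 ± 0.15), factors of deep cortical layers, and the cholecystokinin receptor gene Cckbr (0.42 ± 0.13) also overlapped. Forebrain interneuron genes went both ways, with a median of 0.24 over 14 kept. Of these, 2 were called lower and 0 higher (1.51% and 0.334% of all genes were). Without overlap, 3 were higher and 4 lower, where 4.51% and 5.09% of all genes were. The 3 higher were the peptide genes Npy (0.40 ± 0.07), Sst (0.37 ± 0.08) and Vip (0.30 ± 0.11). The peptide genes Cck (0.43 ± 0.15), Crhbp (0.34 ± 0.12) and Tac2 (0.28 ± 0.12) overlapped. Cnr1 (-0.35 ± 0.07) and Nos1 (-0.28 ± 0.10) were lower without overlap and under 1.5-fold. Pvalb, the calcium buffer of fast-spiking interneurons and also of Purkinje cells and molecular layer interneurons, was called lower, at 483, 594 and 766 against 1534 to 1866 (median 1708) (-1.48 ± 0.11). Kcnc1, a fast potassium channel gene, was lower by its strongest probe set (-0.62 ± 0.10), but its 2 other probe sets had a median of -0.03.

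Of 17 forebrain transcription factors kept, 16 had a difference above 0, as did 6302 of all 12582 genes. Their median was 0.38, and 1 was called higher (0.334% of all genes were). That gene was Dlx1, a homeodomain factor of GABA neurons of the ganglionic eminences, at 146, 163 and 54.4 against 35 to 51.7 (median 42.5) (1.25 ± 0.25). Its signal in replicate 3 at 22 weeks was barely above the high-Gabra6 arrays, while the other 2 were far higher. Meis2, a homeodomain factor of striatal and olfactory neurons, gave 646, 691 and 452 against 293 to 411 (median 354) (0.74 ± 0.13), and its 3 other probe sets had a median of 1.08. Lhx2 gave 239, 256 and 257 against 150.1 to 215 (median 175) (0.49 ± 0.10), and Bcl11b differed by 0.46 ± 0.09, both without overlap.

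The median of the olfactory bulb list set 1 of the 3 arrays apart from the other 2. Of 13 genes kept, 2 were called higher and 2 lower (0.334% and 1.51% of all genes were), with a median difference of 0.49. The list's median was 0.51 in replicate 1 at 18 weeks and 0.52 in replicate 2 at 22 weeks. In replicate 3 at 22 weeks it was -0.15, and in the 6 it was -0.11 to 0.11. Cdhr1, a protocadherin-like protein of mitral and tufted cells, gave 291, 283 and 42.7 against 28.7 to 63.2 (median 44.7), and 25.3 to 77.4 (median 49.1) in the transgenic arrays. Doc2g, a synaptotagmin relative used as a marker of the same cells, gave 142, 137 and 30.9 against 23.6 to 47.4 (median 32.4), and Sp8, a factor of bulb interneurons, gave 42.8, 59.7 and 7.6 against 7.6 to 23.4 (median 13.8). In each of these 3 genes the first 2 arrays exceeded every other wild-type and transgenic array, and replicate 3 at 22 weeks lay within the range of the 6. Th, the enzyme that makes dopamine in bulb and midbrain, was higher, at 118, 128 and 68.3 against 48.0 to 66.7 (median 56.0) (0.79 ± 0.17), again with the weakest rise in replicate 3 at 22 weeks. Ms4a15, a tetraspanning membrane protein gene on the same list, was higher as well, at 67.6, 71.2 and 44.3 against 14.1 to 35.2 (median 22.0) (1.21 ± 0.24). The list's members Calb2 and Gng13 were lower. Calb2 gave 498, 556 and 243 against 632 to 913 (median 727) (-0.85 ± 0.20), and its difference was -0.49 without replicate 3 at 22 weeks. Gng13 gave 374, 211 and 307 against 396 to 561 (median 476) (-0.68 ± 0.15). In the transgenic arrays Calb2 gave 536 to 1034 (median 833) and Gng13 gave 214 to 331 (median 280), for Gng13 within the range of the low-Gabra6 arrays. Slc6a3, the dopamine transporter of midbrain neurons, gave 73.6, 69.1 and 113 against 38.7 to 69.7 (median 61.0) (0.53 ± 0.18), with its highest value in replicate 3 at 22 weeks.

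**Figure D4:**
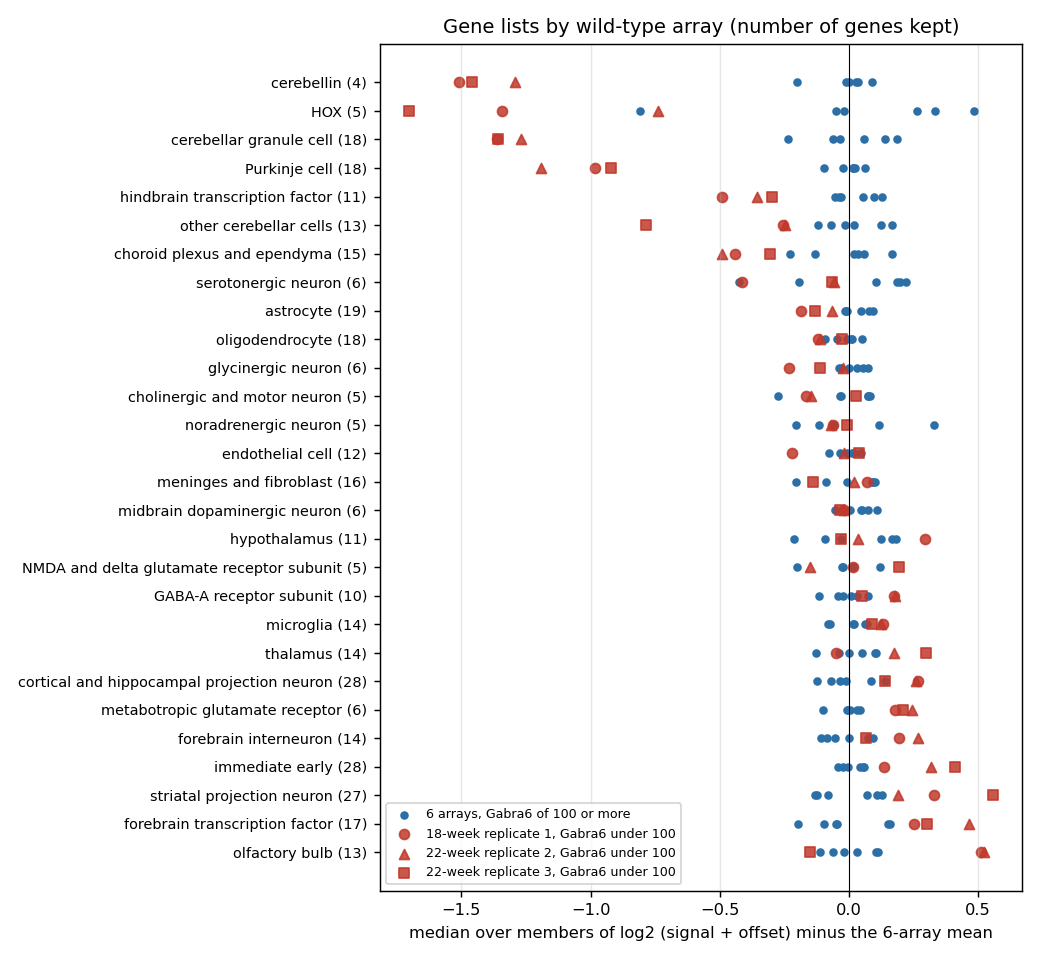
Median over each list's kept genes (number in brackets) of log2(signal + 5.4) minus the mean of the 6 high-Gabra6 arrays, for each wild-type array. The red symbols are the 3 low-Gabra6 arrays, which lie together for granule cells (-1.36, -1.27 and -1.36) and apart for the olfactory bulb (0.51, 0.52 and -0.15).

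The thalamic list had a median of 0.16 over 14 kept, with 10 differences above 0 and 4 below. Of the 14, 2 were called lower (1.51% of all genes were), namely Zic1 and Calb2, given above, and 0 higher. The hypothalamic list had a median of 0.02 over 11 kept. Of the 11 hypothalamic genes, 3 were higher without overlap (4.51% of all genes were), all of them peptide precursors. Of these 3, 1 was called higher (0.334% of all genes were). Avp, the antidiuretic hormone, gave 233, 213 and 183 against 95.8 to 162 (median 128) (0.68 ± 0.14). Pmch, the precursor of melanin-concentrating hormone, gave 642, 521 and 609 against 366 to 474 (median 402) (0.53 ± 0.09), and Hcrt, the orexin precursor, gave 91.6, 92.4 and 96.4 against 54.0 to 73.1 (median 65.4) (0.52 ± 0.12). Other peptide genes overlapped between the sides, namely Oxt (0.02 ± 0.18), Pomc (0.14 ± 0.29), Trh (0.20 ± 0.21), Cartpt (0.00 ± 0.26), Gal (-0.25 ± 0.22) and Crh (-0.22 ± 0.18). In the transgenic arrays Avp gave 13.1 to 86.3 (median 40.9) and Pmch gave 77.1 to 152 (median 112).

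Immediate early genes, which neurons switch on within minutes of activity, had a median of 0.25 over 28 kept, with 8 higher and 1 lower without overlap, where 4.51% and 5.09% of all genes were. Nr4a1, a nuclear receptor, gave 651, 785 and 823 against 389 to 569 (median 533) (0.56 ± 0.11), and Egr1 differed by 0.46 ± 0.10. The list's median was 0.14 in replicate 1 at 18 weeks, 0.32 in replicate 2 and 0.41 in replicate 3 at 22 weeks. Dusp5, a phosphatase that inactivates ERK, was the exception, lower at 17.1, 19.2 and 45.0 against 70.0 to 132 (median 102) (-1.81 ± 0.23). The transgenic arrays, all with Gabra6 of 1015 or more, gave 7.0 to 48.3 (median 26.3) for Dusp5.

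Markers of glia and vessels differed by small amounts, although the astrocyte and microglial medians separated the sides. Of 18 oligodendrocyte genes kept, 0 were called and the median was -0.13, with 3 lower and 0 higher without overlap (5.09% and 4.51% of all genes were). The myelin enzyme gene Cnp gave 1932, 2047 and 2185 against 2188 to 2715 (median 2319) (-0.22 ± 0.07). Of 19 astrocyte genes, Agt, the angiotensin precursor, was lower at 239, 241 and 198 against 282 to 406 (median 349.8) (-0.62 ± 0.10), and Hes5, a Notch target, was higher at 80.9, 68.6 and 80.0 against 34.3 to 45.3 (median 37.1) (0.90 ± 0.12). The astrocyte median was -0.14, or -0.07 without replicate 1 at 18 weeks, with 3 genes lower and 1 higher without overlap. By array it ran from -0.18 to -0.07 in the 3 and from -0.02 to 0.09 in the 6, and these ranges did not overlap. The microglial median ran from 0.09 to 0.13 in the 3 and from -0.08 to 0.07 in the 6, also without overlap. Endothelial genes (12 kept, median -0.05, 0 called) and meningeal genes (16 kept, median -0.05, with Col6a1 the only one called) overlapped between the sides. Col6a1, a collagen chain, gave 170.2, 215 and 196 against 75.2 to 153 (median 112) (0.74 ± 0.18).

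Choroid plexus genes were lower in part, with a median of -0.33 over 15 kept and 3 called lower (1.51% of all genes were). Folr1, the folate carrier of the plexus, gave 41.5, 44.2 and 47.4 against 63.0 to 127 (median 79.0) (-0.84 ± 0.17). Kl, which encodes klotho, gave 51.1, 55.6 and 43.3 against 65.1 to 103 (median 87.9) (-0.69 ± 0.16), and Sostdc1, a secreted Wnt and BMP inhibitor, gave 30.5, 67.6 and 58.3 against 81.2 to 116 (median 98.5) (-0.90 ± 0.20), or -0.59 without replicate 1 at 18 weeks. Ttr, the thyroid hormone carrier and the most abundant product of the plexus, differed by -0.12 ± 0.06 and overlapped. Pituitary genes were few, with 3 of 10 kept and 0 called, and their spread came from single arrays: Prl gave 261.5 in replicate 2 at 18 weeks, a high-Gabra6 array, and 0.9 to 27.5 in the other 5 of its side.

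Among the other rises, Mid1, a ubiquitin ligase gene, had the highest at 21.7, 34.6 and 42.4 against 3.7 to 14.1 (median 10.1) (1.36 ± 0.29), near background. Akr1c18, a steroid reductase gene, gave 35.5, 37.1 and 29.2 against 2.5 to 28.0 (median 18.2) (0.99 ± 0.37), and Inhba, an activin subunit gene, gave 64.9, 56.1 and 65.8 against 23.2 to 46.0 (median 33.5) (0.81 ± 0.20). Slc35d3, an orphan transporter gene of striatal neurons, gave 53.3, 63.9 and 51.2 against 26.5 to 33.2 (median 30.4) (0.78 ± 0.13), and Kcnk4, a mechanosensitive potassium channel gene, gave 35.1, 31.8 and 40.9 against 11.0 to 31.3 (median 20.6) (0.66 ± 0.24). Ajap1, a junction protein gene, differed by 0.83 ± 0.19, but its 2 other probe sets had a median of 0.26. Stard8 (0.66 ± 0.17), Klhl40 (0.81 ± 0.27), Tmem40 (0.67 ± 0.21) and the unnamed transcripts 5031426D15Rik (0.68 ± 0.17) and 1700034H15Rik (0.67 ± 0.20) were also higher, and the other probe set of Tmem40 differed by 0.05.

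Rpgrip1 was among the deepest falls but did not follow the cerebellar genes in the transgenic arrays. It encodes a partner of the RPGR protein in the connecting cilium of photoreceptors. It gave 21.1, 22.4 and 20.9 against 267 to 631 (median 303) (-3.79 ± 0.23). Within the 6 arrays, 4 lay between 266.9 and 304.7 and 2 at 518.5 and 630.9. Among the transgenic arrays, replicates 2 and 3 at 18 weeks gave 23.7 and 20.1, as low as the low-Gabra6 arrays, with Gabra6 at 1179 and 1015 there. The other 7 gave 312.9 to 784.0. Low Rpgrip1 therefore occurred with and without Gabra6 signal.

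A few measured genes near Rpgrip1 in the RefSeq gene order, chosen after their values were seen, separated the arrays low in Rpgrip1 from the others. Ttc5 did so only narrowly, with 274.0 in a low-Gabra6 array and 271.8 in a transgenic array not low in Rpgrip1. Supt16, the next measured gene, which encodes a histone chaperone subunit, was higher at 445, 439.7 and 457 against 234.4 to 322.8 in the high-Gabra6 arrays. It gave 473.5 and 460.3 in the 2 transgenic arrays low in Rpgrip1 and 202.7 to 380.3 in the other 7. Chd8, the second measured gene away and a chromatin remodeller, was lower at 95.1, 91.3 and 133 by its strongest probe set, although the mean over its probe sets differed by only -0.22, and gave 107.6 and 121.8 in the same 2 transgenic arrays against 182.2 to 255.9 in the other 7. Ttc5, a p300 cofactor 15 measured genes away on the other side, was higher at 351, 299 and 274 against 139.9 to 224 (median 213) (0.65 ± 0.14), and gave 275.0 and 274.9 there against 162.2 to 271.8 in the other 7. Gm26782, a transcript 13 measured genes away on that side, was lower at 9.5, 9.0 and 24.1 against 48.3 to 86.3. It gave 27.1 and 31.4 in the same 2 transgenic arrays against 35.9 to 79.4 in the other 7. Ang, 8 measured genes away on that side, differed by -1.57 but overlapped, with 5.7 in replicate 2 at 27 weeks, a high-Gabra6 array. The genes between them were mostly not called, such as Hnrnpc, the neighbour on the other side, with a difference of -0.08. Why these genes vary together was not tested.

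**Figure D5:**
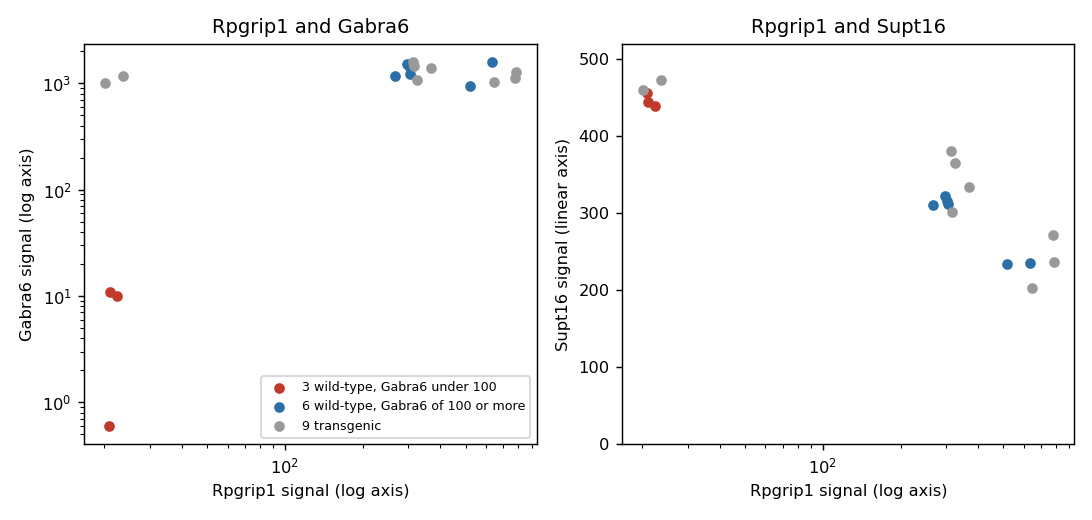
Signal of Rpgrip1 (log axis) against Gabra6 (left, log axis) and Supt16 (right, linear axis) on the 18 arrays: low-Gabra6 wild-type (red), high-Gabra6 wild-type (blue) and transgenic (grey). At the left edge, 2 transgenic arrays with Rpgrip1 of 20.1 and 23.7 share the low Rpgrip1 of the 3 red arrays but have Gabra6 of 1015 and 1179, and all 5 have Supt16 between 439.7 and 473.5.

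Technical measures differed little between the sides. The median signal of an array was 26.9 to 27.4 in the 3 and 26.3 to 28.3 in the 6, and the ratio of 3′ to 5′ Gapdh probe sets was 0.729 to 0.739 against 0.695 to 0.755. By sex-specific transcripts, 1 of the 3 and 2 of the 6 mice were female. Taken alone, the low-Gabra6 arrays had 409, 351 and 370 of 12582 genes below all of the 6 and at least 1.5-fold below their mean. By the same rule, 197, 170 and 233 genes lay above. Nothing is read from these counts, because a signal of these arrays chose them. Beyond age, dissection and RNA batch could not be compared from the labels, and their part in the differences was not tested.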

How the data were processed

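Each of 18 brain hemispheres was hybridised to an Affymetrix whole-genome mouse array, 1 array per mouse, per the labels. The authors deposited linear signal intensity values made with MAS5, per the submitters' processing notes, and the sources used here do not name its version. Each array had a 2% trimmed mean of 100, and no scaling was added. Of 45101 probe sets, 64 controls were left out. The annotation named 1 gene for 34945 of the rest, several for 932 and none for 9160, and 34754 symbols were brought up to date through Entrez identifiers.

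Probe sets with a mean above the 40th percentile of means (16.1) were kept: 27022 probe sets of 12582 genes. A gene is its strongest kept probe set. Values were log2(signal + 5.4), 5.4 being the 20th percentile of all values, a scale that understates changes of weak genes. Differences and moderated standard errors came from limma 3.58.1 in R 4.3.3, and tables from Python 3.11.15 with pandas 2.3.3 and numpy 2.4.6. No p-value is given, because a signal of these arrays defined the sides.

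The arrays, the 31 gene lists and the rules were chosen with earlier results of these data known. Named are the 20 largest falls and rises without overlap, 4 members of each list by size of difference, all kept members of the receptor, cerebellin and HOX lists, and the markers. Other genes named, including list members beyond 4 and the neighbours of Rpgrip1, were chosen after their values were seen. The calling rule was tested on simulated data. Alternatives changed the offset, filter, scaling, probe set, age, fold minimum and arrays. Promoters are from RefSeq (GRCm38.p6). Arrays give no depth in reads, and precision is limited by how many mice there were and by signals close to background.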

Additional observations from a re-analysis of the deposited data

Results flagged for a closer look

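Among the 6 high-Gabra6 arrays, 10 of 147 genes examined had 1 array far from the other 5, and 4 of 30 lists did, where chance gives about 1 in 20. Replicate 3 at 18 weeks gave 0.8 for Hoxb5 (others 19.8 to 43.0), 3 for Hoxc4 (others 18.7 to 35.6), 67.8 for the receptor kinase gene Ret (others 89.9 to 100.8) and 168.7 for Grm4 (others 184.3 to 192.4), and its cerebellin list lay at -0.1990 (others -0.0119 to 0.0885). The other genes with 1 array apart were Slc18a3 at 20.5 in replicate 2 at 27 weeks, Arc at 141 in replicate 1 at 22 weeks, Gabrg3 at 38.8 and Aif1 at 26.9 in replicate 1 at 27 weeks, Grin2b at 104.9 in replicate 3 at 27 weeks and Gjb1 at 48.3 in replicate 2 at 18 weeks. Among lists, cholinergic and motor neuron genes lay at -0.2725 in replicate 2 at 27 weeks, metabotropic glutamate receptors at -0.1007 in replicate 3 at 27 weeks and pituitary genes at 2.0289 in replicate 2 at 18 weeks, where Prl gave 261.5.

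For 9 of the 147 genes examined, sex-specific ones left out, the sides lay in opposite order at 18 and at 22 weeks. They did not overlap at either age. At each of these ages 1 array stands against 2, and so few arrays often separate in either order without any real difference. No effect of age is read from these genes. The difference between the ages was not tested. The value at 18 weeks minus that at 22 weeks was 1.2123 for Hoxa5, 0.5158 for Slc18a2, 0.8758 for Gal, 0.4361 for Maoa, 0.3833 for Isl1, 0.6265 for Lef1, -1.5824 for Arc, 0.6058 for Dcn and 1.5720 for Slc4a5.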

How the results depend on the processing

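Under the alternatives run, the granule cell and Purkinje cell medians stayed below 0, the striatal median stayed above 0, and no called named gene turned its direction. The count of 190 lower genes was 338 with a fold minimum of 1.3 and 94 with a minimum of 2, and the count of 42 higher genes 194 and 3. With an offset of 16, 17 genes were higher and 12 were lower at least 4-fold, and the medians were -0.97 for granule cells, -0.95 for Purkinje cells and -0.78 for HOX genes, which were -2.05 with an offset of 1. With no filter on low values, 95 genes were higher and the medians were -1.14, -0.90 and -0.11. With a filter at the 60th percentile, 22 genes were higher and they were -1.49, -1.18 and -0.085. The last is the difference of Hoxa5 alone, whose probe sets disagree. With age as a block, 81 genes were higher and the granule cell median was -1.15. Leaving out each array in turn gave 188 to 236 lower genes, 39 to 90 higher ones, 21 to 26 lower at least 4-fold, and medians of -1.37 to -1.26 for granule cells, -1.10 to -0.95 for Purkinje cells and -1.64 to -1.04 for HOX genes. The HOX median, -1.34 with the filter used, rests on genes of which 4 of 5 passed that filter only through arrays where they are high, so it supports no direction. Apart from the filters, which admit other genes, and the omitted arrays, the cause was not tested. No scaling moved the median of all genes by more than 0.01. No paired analysis was possible because the titles carry sample codes and no shared replicate numbers, and the comparison rests on no test. With 3 arrays on one side, and signals near background for HOX genes, small differences were not resolved.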
